A study of Caenorhabditis elegans with 2 samples.

Results

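Chromosome V carried 768 of the 4534 SCC-1 peaks in the peak list of a chromatin immunoprecipitation sequencing (ChIP-seq) experiment in Caenorhabditis elegans. Its members are all peaks that the list places on V, the longest chromosome of the list. They were taken by chromosome and not by score or width, but V was chosen with earlier results of these data known. The reference for V is the 3514 peaks on the other 4 autosomes, I to IV. The X chromosome was left out of the reference.

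The series has 2 samples, 1 library of SCC-1 ChIP DNA and 1 library of input DNA, each labelled as replicate 1. Both came from hermaphrodites of the strain fem-2(b245), genotype fem-2(b245)III, grown at 20 °C and described as young adults that contain a germline, although the growth protocol speaks of gravid adults. The mutant allele is therefore shared by both samples, and no wild-type strain was among them. Whole worms were ground, so binding in germline and somatic cells cannot be told apart. Only the ChIP library has a peak list, so there was no replicate error, and the read depth behind each peak is unknown.

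The mitotic form of cohesin contains SCC-1 as its kleisin, the subunit that closes the ring formed by SMC-1 and SMC-3. Cohesin holds sister chromatids together from replication to anaphase and also folds chromosomes in interphase. Worm chromosomes are holocentric, so cohesin is not gathered at 1 centromere as it is in many other animals. Meiotic recombination in worm autosomes is concentrated on the arms, which are also richer in repeats and in histone H3 lysine 9 methylation than the centres, and the arms of V are known for large families of chemoreceptor genes.

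Peaks were sparser on V than on any other autosome. V held 36.8 peaks per Mb (exact Poisson 95% interval 34.3 to 39.5), against 57.1 (55.2 to 59.0) over I to IV. The ratio of the densities was 0.645, with an exact 95% interval of 0.596 to 0.697. Set against each autosome, the ratio was 0.545 for I, 0.730 for II, 0.551 for III and 0.796 for IV, and each of these 4 intervals lay below 1. Peaks covered 6.66% of V, against 11.5% of I to IV, where the share ran from 9.44% on IV to 13.8% on III. These intervals count each peak as independent and cover counting error only. Neighbouring peaks are not independent, so the intervals are too narrow. With the chromosome as the unit, 1 chromosome against 4 cannot reach an exact permutation p below 0.2.

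The peaks of V were also somewhat narrower and scored lower. The median width was 1420.5 bp on V with quartiles of 1105 and 2010.5 bp, against 1541 bp on I to IV with quartiles of 1151 and 2326 bp. Only 329 of the 768 peaks of V (42.8%, exact binomial 95% interval 39.3 to 46.4) were wider than the I to IV median. The score is the authors' own value for each peak, on a scale that the file does not state. Its median was 283 on V, with quartiles of 111 and 963, against 362 on I to IV, with quartiles of 131 and 1126. The I to IV median score was exceeded by 335 peaks of V (43.6%, 40.1 to 47.2). Peaks of at least 5000 bp numbered 25 on V (3.26%), against 146 on I to IV (4.15%). The odds ratio of 0.776 had an interval of 0.483 to 1.20, so a difference in this share was not detectable with 25 peaks. Width and score were related across the peaks of V (Spearman's rho = 0.669) and across those of I to IV (0.687). Peaks share a library and are no replicates, so these are descriptions.

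Windows of 1 Mb from 4000001 to 16000000 on V held 34 to 56 peaks each, and the windows on both sides of that span held 22 to 32. Counted from the left end, the 20 complete windows held 23, 32, 28, 23, 39, 42, 44, 37, 42, 50, 56, 53, 36, 48, 50, 34, 29, 22, 29 and 26 peaks. The incomplete last window, from 20000001 to 20850691, held 25. The fullest windows ran from 10000001 to 12000000 with 56 and 53 peaks, and 2 further windows, from 9000001 to 10000000 and from 14000001 to 15000000, held 50 each. The emptiest ran from 17000001 to 18000000 with 22 peaks, and the first window and that from 3000001 to 4000000 held 23 each. All 20 windows of V lay below 57, the median window of I to IV. Over the complete windows the mean was 37.2 ± 10.7 peaks on V (SD, n = 20 windows) and 57.05 ± 18.04 on I to IV (SD, n = 60 windows), and 31 of those 60 held more than the fullest window of V.

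**Figure D1:**
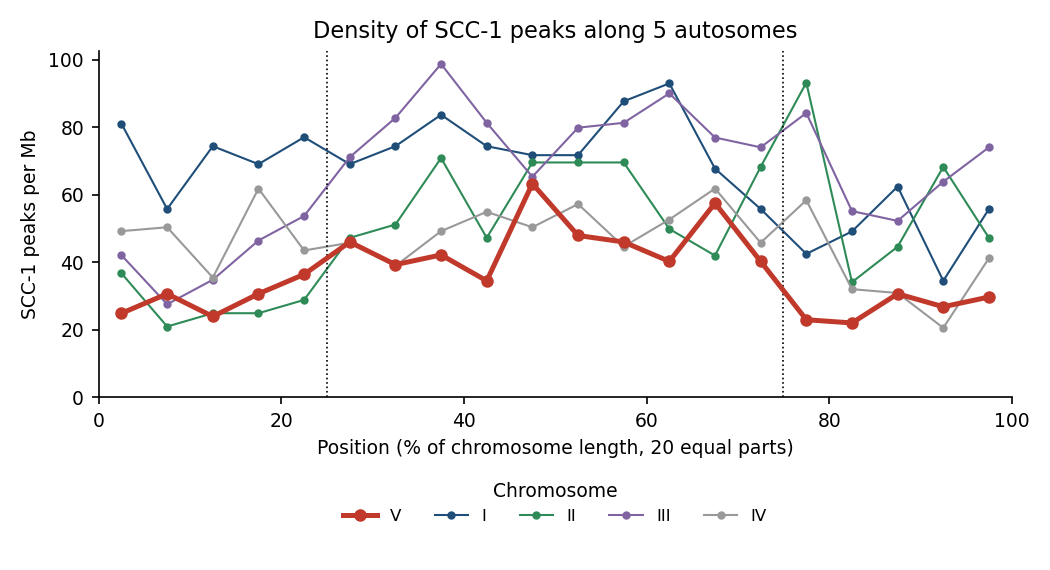
SCC-1 peaks per Mb in 20 equal parts of each of 5 autosomes, plotted against position as a percent of chromosome length. Dotted lines mark the borders of the arms at 25 and 75 percent. V (thick red line) ranges from 22.1 to 36.4 peaks per Mb on its arms and from 34.5 to 63.3 in its centre.

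Both arms of V were sparse. Each chromosome was divided into 4 equal parts, the first and last of which are called its arms, so that the left arm of V ends at base 5212672 and the right arm begins at base 15638019. The 4 parts of V held 153, 235, 242 and 138 peaks in order from the left end. In densities, these were 29.4 peaks per Mb on the left arm, 45.1 and 46.4 in the 2 central parts and 26.5 on the right arm. The arms together held 291 peaks, or 27.9 per Mb, against 477 in the centre, or 45.8 per Mb. The ratio of arms to centre was 0.610 (0.525 to 0.707). In windows of 1 Mb there were 27.9 ± 5.35 peaks in the 9 windows on the arms and 44.7 ± 7.27 in the 11 in the centre (SD over windows). Windows on the arms held 22 to 39 peaks and central windows 34 to 56, so the ranges overlapped.

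V had the lowest ratio of arms to centre of the 5 autosomes, and the odds ratio of an arm position excluded 1 against I to IV pooled but not against II or III singly. Over I to IV the ratio of arms to centre was 0.757 (0.708 to 0.810), and V's odds of lying on an arm were 0.806 times those of the other autosomal peaks (0.684 to 0.949). Chromosome III had a ratio of 0.667, II of 0.724, I of 0.803 and IV of 0.845. Compared with single autosomes, the odds ratio of V was 0.760 against I (0.624 to 0.924) and 0.722 against IV (0.588 to 0.887). Against II it was 0.842 (0.683 to 1.04) and against III 0.915 (0.748 to 1.12), which include 1. The pooled odds ratio also included 1 when arms were the outer 2 of 3 equal parts (0.897, 0.764 to 1.06), without the outer 1 Mb at each chromosome end (0.899, 0.753 to 1.07) and with peaks of score 250 or more only (0.834, 0.667 to 1.04).

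The left and right arms of V differed little in the number of peaks. The ratio of left to right was 1.11 (0.875 to 1.41). It was 1.46 on I (1.21 to 1.77), 0.475 on II (0.372 to 0.602), 0.621 on III (0.4998 to 0.770) and 1.31 on IV (1.06 to 1.62), each with an interval that excludes 1. In the higher-scoring 50% of all peaks the ratio was 1.61 (1.11 to 2.35), the only setting tried whose interval excluded 1. With scores of 250 or more it was 1.31 (0.944 to 1.82). The median score was 349 on the left arm and 233 on the right, against 263 and 301 in the 2 central parts. The median width was 1342 bp on the left arm and 1282.5 bp on the right, against 1536 and 1464.5 bp in the central parts. None of the 25 peaks of at least 5000 bp lay among the 138 peaks of the right arm. The left arm held 7 (4.58% of its peaks) and the central parts 9 each (3.83% and 3.72%). On single arms of I to IV the share ran from 1.09% on the right of I to 6.85% on the right of II. These shares were not tested.

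Long stretches without a peak were more frequent on V. A stretch comprises all bases between 2 neighbouring peaks. V had 36 stretches of at least 100 kb, or 1.73 per Mb, against 55 on I to IV, or 0.894 per Mb. The ratio was 1.93 (1.23 to 2.99), and it was 8.85 (2.21 to 50.8) for stretches of at least 200 kb, of which V had 9 and I to IV together 3. Against single autosomes, the ratio at 100 kb was 2.89 for I (1.36 to 6.82) and 4.76 for III (1.86 to 15.5). It was 1.38 for II (0.773 to 2.55) and 1.37 for IV (0.785 to 2.45), where the intervals include 1. II and IV had 50.5 and 46.3 peaks per Mb, against 67.6 on I and 66.8 on III. The number of long stretches depends on the density of peaks, so it cannot be read here as a trait separate from the sparser peaks of V. Whether V had more of them than its density gives was not tested. The 36 stretches added up to 6.12 Mb, or 29.3% of V, against 12.02% of I to IV. Which bases of these stretches reads could reach was not analysed here.

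The longest stretch on V spanned 373 kb on the left arm from 349711 to 723167. A peak of score 262, from 348725 to 349710, preceded it, and a peak of the ceiling score of 3100, from 723168 to 728403, followed it. The next, of 331 kb on the right arm from 18202207 to 18533254, lay between peaks of score 60.1 (18201183 to 18202206) and 705 (18533255 to 18534377). The longest in the centre, of 257 kb from 8631899 to 8889193, lay between peaks of score 306 (8630949 to 8631898) and 75.8 (8889194 to 8890407). Of the 8 longest stretches, 7 were therefore on the arms.

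The left arm held a run of such stretches. They extended over 254 kb from 2950273 to 3204102, 233 kb from 1531644 to 1764552, 232 kb from 2142281 to 2374135 and 218 kb from 3760141 to 3978334. The 233 kb stretch began after a peak at the score ceiling, from 1530475 to 1531643, and ended at a peak of score 61.1, from 1764553 to 1766060. The peaks beside the 254 kb stretch scored 594 (2948572 to 2950272) and 248 (3204103 to 3205063), and those beside the 232 kb stretch 349 (2140664 to 2142280) and 403 (2374136 to 2375419). Weak peaks bounded the 218 kb stretch, with scores of 76.4 (3759181 to 3760140) and 123 (3978335 to 3979619). On the right arm, a stretch of 227 kb from 19293606 to 19521060 lay between peaks of score 251 (19292465 to 19293605) and 108 (19521061 to 19522176). Peaks at the ends of long stretches thus ranged from near the lower end of the scores to their ceiling.

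**Figure D2:**
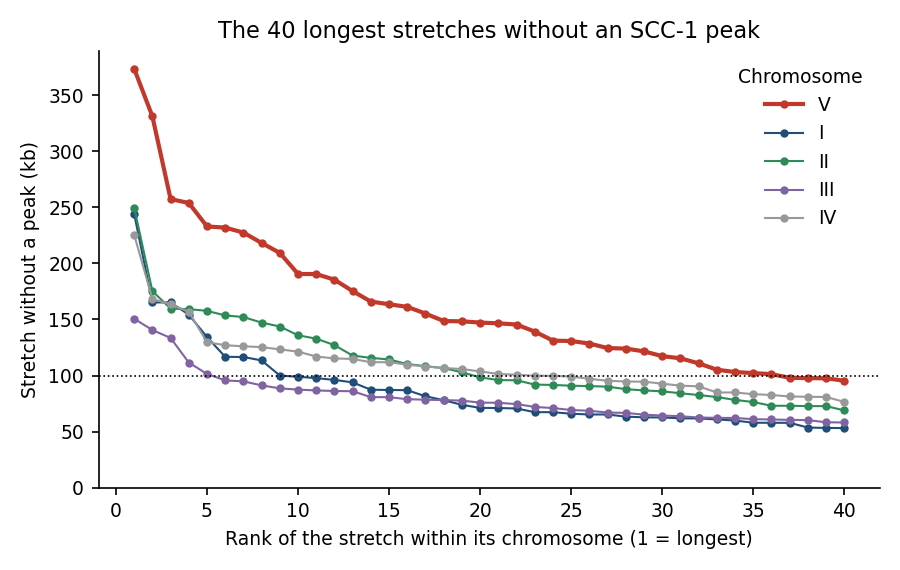
Length in kb of the 40 longest stretches without a peak on each of 5 autosomes, ordered by rank, with a dotted line at 100 kb. At each of the 40 ranks the stretch on V (thick red line) is the longest, from 373 kb at rank 1, against 250 kb for the longest on I to IV.

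Long stretches took up 39.1% of the arms of V and 19.5% of its centre, against 16.7% of the arms and 7.31% of the centres of I to IV. In number, 22 lay on the arms of V and 14 in its centre (ratio 1.57, 0.769 to 3.32), an uneven split that was not detectable with 36 stretches. The left arm held 10 and the right arm 12. On I to IV, 36 lay on the arms and 19 in the centres (ratio 1.89, 1.06 to 3.50), so an uneven split was not particular to V. When these stretches were left out of the length, V held 52.1 peaks per Mb, against 64.9 on I to IV, and the ratio of the densities was 0.803 (0.742 to 0.868) in place of 0.645. The ratio of arms to centre was then 0.806 on V and 0.843 on I to IV. This calculation was chosen after the data were seen, and by its construction it takes most length from the sparsest chromosome. The shortest distances between peaks were alike, since 139 of 767 stretches on V (18.1%) and 623 of 3510 on I to IV (17.7%) were under 1000 bp. The median stretch was 9315 bp on V and 6382.5 bp on I to IV, and the upper quartile was 31563 bp on V and 19543 bp on I to IV.

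Groups of close peaks were smaller on V than on I, II and III and near those of IV. Joining peaks less than 5000 bp apart gave 465 groups on V, of which 283 were single peaks, 110 were pairs and 72 held 3 or more. Peaks in groups of 3 or more made up 34.5% of the peaks of V. The share was 36.8% on IV, 41.5% on II, 47.8% on III and 48.2% on I. The 5 autosomes take the same order in peaks per Mb, and joining at a fixed distance depends on density. The smaller groups of V can therefore not be told apart here from its sparser peaks. Whether density accounts for them was not tested. The fullest group of V, with 7 peaks, ran from 13649681 to 13672696 in the centre. Its peaks covered 92.1% of its span, their scores ran from 105 to 2264, and it held a peak of 7613 bp, among the widest of V. A further 6 groups held 6 peaks each, and the 2 shortest of these are given. That at 18124961 to 18138334 on the right arm held only weak peaks, with scores of 63.1 to 201. That at 9382166 to 9400355 in the centre held peaks with scores of 53.5 to 2041. The last 6 peaks of the chromosome formed another such group, from 20831595 to 20850691.

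Scores on V ran from 50.1 to 3191. In the whole list 437 peaks shared the value 3100, which was treated as a ceiling, and peaks of 3100 or more were taken as a single top class that cannot be ranked within itself. V had 81 top-class peaks, 79 of them at exactly 3100, and the highest score below the ceiling on V was 2931. The top class made up 10.5% of the peaks of V (8.46 to 12.9), against 9.82% of those of I to IV. The ratio of the shares was 1.07 and the odds ratio 1.08 (0.828 to 1.40), so a difference in share was not detectable, and the direction turned under 3 of 9 other settings. Against IV, the autosome with the largest share at 14.9%, the odds ratio was 0.676 (0.494 to 0.923), and against III, with 7.50%, it was 1.45 (1.02 to 2.07). Per Mb, V held 3.88 top-class peaks, against 5.61 on I to IV (ratio 0.693, 0.537 to 0.885).

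V was sparser in peaks of all 6 score classes, and closest to the other autosomes in the weakest. Peaks scoring 50 to under 100 had a ratio of densities of 0.758 (0.635 to 0.901), and those of 100 to under 250 one of 0.713 (0.605 to 0.835). For scores of 250 to under 500 the ratio was 0.627 (0.512 to 0.763), and for 500 to under 1000 it was 0.559 (0.447 to 0.693). Scores of 1000 to under 3100 gave the lowest ratio, 0.505 (0.408 to 0.621), and the top class gave 0.693. The intervals of the weakest class and of that of 1000 to under 3100 did not overlap, whereas that of the top class overlapped all others. In counts, V had 165, 192, 123, 100, 107 and 81 peaks in these 6 classes, and I to IV had 642, 795, 579, 528, 625 and 345.

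**Figure D3:**
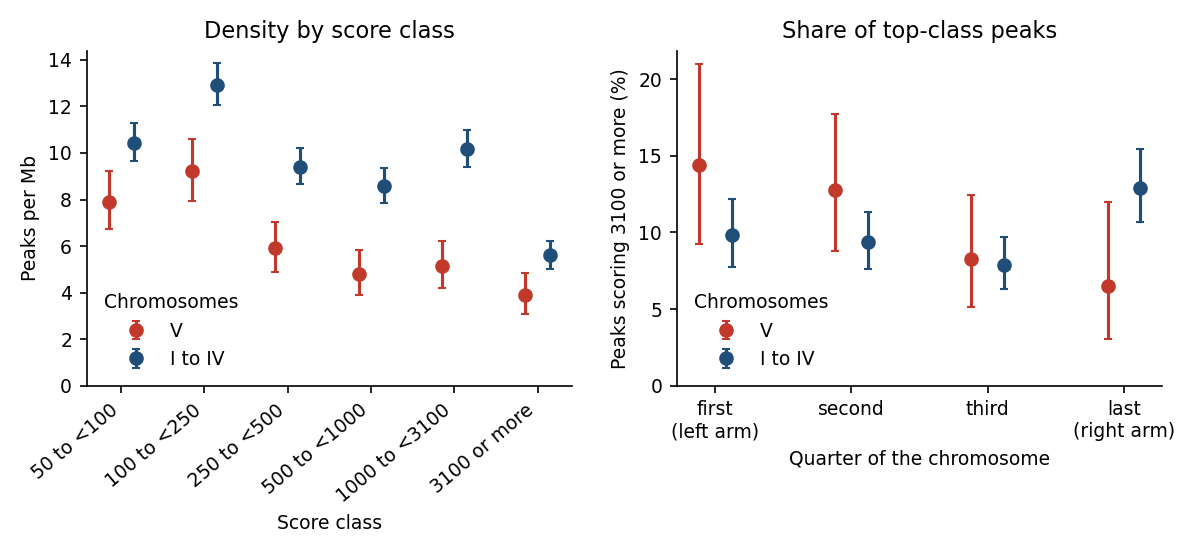
Left, peaks per Mb in 6 score classes on V and on I to IV, with exact Poisson 95% intervals. Right, percent of peaks scoring 3100 or more in each of 4 equal parts of the chromosome, with exact binomial 95% intervals. V (red) lies below I to IV (blue) in each class, and its top-class share runs from 14.4% on the left arm to 6.52% on the right.

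Of the top-class peaks of V, 31 lay on the arms and 50 in the centre, a ratio of 0.620 (0.383 to 0.990), against 173 and 172 on I to IV, a ratio of 1.01 (0.810 to 1.25). These intervals overlap, and the difference was not tested. The odds of an arm position were 1.02 times those of the other peaks of V (0.612 to 1.67). When each chromosome was cut into 3 parts, the outer 2 being its arms, the odds ratio was 1.59 (0.955 to 2.71), so a difference from the other peaks was detectable under neither definition. Between the 2 arms they were uneven. The left arm held 22 top-class peaks among its 153 (14.4%, 9.24 to 20.96) and the right arm 9 among its 138 (6.52%, 3.03 to 12.02), with 30 (12.8%) and 20 (8.26%) in the central parts. These intervals overlap, and the split by arm was made after the values were seen and was not tested. In the last of 4 equal parts, the other autosomes had shares of 8.70% on I, 9.69% on III, 10.96% on II and 25% on IV, and those of I, II and III lay within the interval of V. Uneven arms were also seen elsewhere, with 17.3% on the left arm of II and 4.26% on that of III.

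The number of top-class peaks varied along V. The window from 6000001 to 7000000 held 11 top-class peaks among its 44 peaks, the most on V, where the median over its complete windows was 3.5. Over I to IV the median was 5, and the fullest windows held 12 on I and 13 on IV. Among the 11 in that window of V, 4 lay from 6071036 to 6101868 with 1 peak of score 523 between them. A further 3 lay side by side from 6295844 to 6300557. Only 41 and 42 bp separated the peaks of that row of 3, which were 1517, 1327 and 1787 bp wide. The window from 1000001 to 2000000 held 8 among 32 peaks. Of the 81 top-class peaks, 30 (37.04%) had another within 50 kb, against 37.7% on II and III, 41.4% on I and 53.3% on IV.

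The widest interval free of top-class peaks was on the right arm. No peak from 17619617 to 19770415, over 2.15 Mb, reached the ceiling. The longest distance between neighbouring top-class peaks, from midpoint to midpoint, was 2152 kb on V, against 672 kb on IV, 991 kb on II, 1118 kb on III and 1173 kb on I. V had the fewest top-class peaks per Mb, 3.88 against 4.53 (II) to 6.87 (IV), and a longest distance depends on density and length. The median distance was 123 kb on V, against 109 kb on IV, 130 kb on I, 144 kb on III and 162 kb on II. The interval was not empty: it held 60 peaks with a median score of 160 and a highest score of 1826. Of these, 37 (61.7%) scored under 250, against 357 of the 687 peaks of V below the ceiling (52.0%). The interval was chosen for its lack of top-class peaks, so its scores are a description. From 18000001 to the end of the chromosome, only 2 of 80 peaks were in the top class, at 19770416 to 19771635 and at 20161975 to 20165268.

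**Figure D4:**
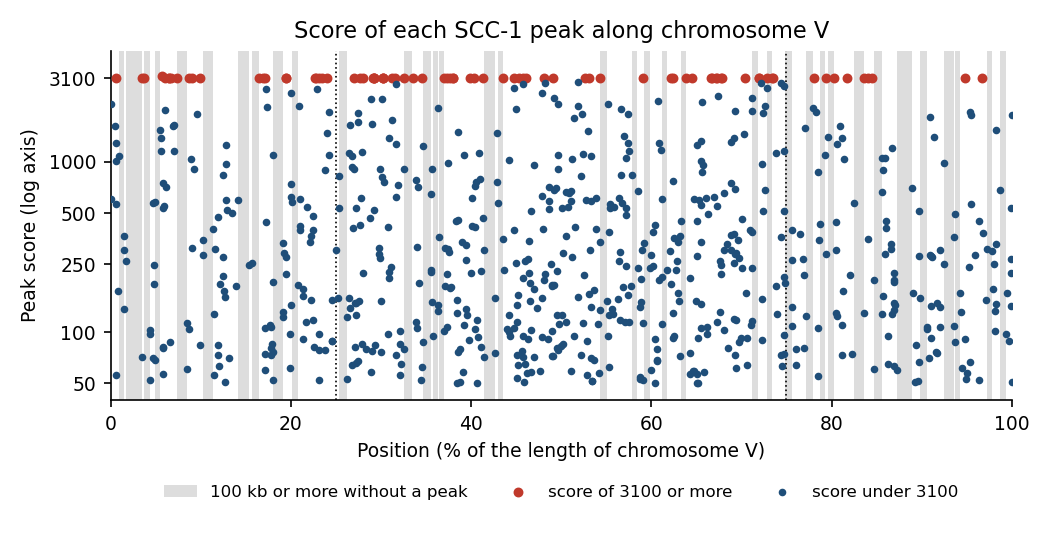
Score of each of the 768 peaks of V on a log axis, against position as a percent of the length of V. Red points score 3100 or more, grey bands are the 36 stretches of at least 100 kb without a peak, and dotted lines mark the arms. Only 2 red points lie beyond 85 percent of the length.

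The peaks with the largest listed score on V were at 1194812 to 1198186, with 3191 and 3375 bp, and at 7852769 to 7856597, with 3113 and 3829 bp. Whether these numbers stand above the tied value of 3100 is not known from the file. Of those tied at 3100, the widest spanned 10762 bp from 10018035 to 10028796, close to the middle of the chromosome. The second, of 10268 bp from 7915282 to 7925549, lay to the right of the peak that scored 3113. Next in width were 7446 bp from 3434130 to 3441575, 7381 bp from 4729589 to 4736969 and 7080 bp from 4753394 to 4760473, all on the left arm. The last 3 of the first 10 were 6751 bp from 9338178 to 9344928, 6746 bp from 1869787 to 1876532 and 6524 bp from 14683362 to 14689885. The peak from 3434130 followed directly on a stretch of 166 kb without a peak.

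Wide peaks of V mostly belonged to the top class, since 17 of the 25 of at least 5000 bp did (68%) and the lowest score among them was 910. After the 2 widest peaks came 2 below the ceiling, with 7627 bp and score 1983 from 14837869 to 14845495 and 7613 bp and score 1330 from 13655217 to 13662829. The converse was looser. Top-class peaks of V were 1169 to 10762 bp wide with a median of 2721 bp (order-statistic 95% interval 2464 to 3294), against 3509 bp (3208 to 3780) on I to IV. Only 28 of the 81 (34.6%, 24.3 to 45.96) were wider than the I to IV median for this class. The other autosomes had medians of 3115 bp on IV, 3345 bp on II, 3721 bp on III and 4177 bp on I, each above that of V.

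Narrow peaks made up a larger share of the top class on V, although the intervals of the shares overlapped. On V 23 of 81 (28.4%, 18.9 to 39.5) were under 2000 bp wide, against 60 of 345 on I to IV (17.4%, 13.5 to 21.8). The share ran from 14.5% on II to 20.7% on I. The odds ratio of V over I to IV was 1.88 (1.02 to 3.38), an interval that excludes 1. This limit of width was chosen after the values were seen, so that interval is a description and no test. Some of these peaks on V lay side by side, such as the row of 3 separated by 41 and 42 bp. Top-class widths were not compared after merging close peaks. On the right arm of V 6 of 9 were under 2000 bp. The narrowest, of 1169 bp, was the peak before the 233 kb stretch of the left arm. In the other score classes the median widths of V and I to IV were closer, at 1049 and 1057.5 bp for scores under 100 and at 2340 and 2387 bp for 1000 to under 3100. For 500 to under 1000 they were 1640 bp on V and 1858 bp on I to IV.

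Isolated peaks of V had a higher median score than its other peaks, which was not tested. Peaks at least 25 kb from both neighbours numbered 64 on V, with a median score of 423, against 277 for the other 704 peaks of V. On I to IV the 148 such peaks had a median score of 327, against 362 for the others. Top-class peaks made up 12 of the 64 on V (18.8%, 10.1 to 30.5) and 69 of the 704 others (9.80%, 7.71 to 12.2), and these intervals overlap. On I to IV the shares ran the same way, with 12.2% of the isolated peaks and 9.71% of the others. Peaks beside a stretch of at least 100 kb, 72 on V, had a median score of 306, against 281 for the other 696. On I to IV they had 269, against 367 for the others.

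The list of V began at base 1, whereas its right end is by definition the end of its last peak. Any bases beyond that peak were not counted. The first peak began at base 1, spanned 764 bp and scored 610, and it was also the narrowest of V. It cannot extend further outward, so its width is not comparable with the others. The next peak began at 6205, ended at 9384 and scored 2183, and the third began at 101863. At the other end, the last peak ran from 20849732 to 20850691 with a score of 50.7, and the peak before it, from 20845087 to 20848348, scored 1885. The other narrowest peaks of V spanned 778 bp from 5268985 to 5269762, with a score of 159, and 786 bp from 13592725 to 13593510, with a score of 50.2.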

How the data were processed

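SCC-1 ChIP-seq peaks of 1 library were analysed. Per the labels' protocols, worms were fixed with 1% formaldehyde for 10 minutes, sonicated and precipitated with 5 µg of antibody. Per the file headers, the deposited peaks were called by the authors with MACS on WormBase WS220, each with a score of unstated scale, and positions are counted from 1. BWA and the ce10 build are listed in the submitters' processing notes. Not given in the sources used here are tool versions, the calling threshold and whether the input was the control.

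Chromosome length was taken as the end of the last peak. Peaks were placed by midpoint. Ratios of densities carry exact conditional 95% intervals and shares carry Clopper-Pearson intervals. Medians carry no test. All intervals cover counting error over peaks only. Some of the interval procedures were checked, on simulated peaks placed independently of each other. That check cannot show how the intervals behave where neighbouring peaks are not independent. Genes and sequences were not assigned, since no annotation or genome of WS220 was used.

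The peaks named are the 10 of highest score (ties by width), the 5 widest, the 3 narrowest, the first and last, those beside the 8 longest stretches and the 3 fullest groups. Others were named after their values were seen. Members, lists and rules were chosen with earlier results of these data known. Computation used pandas 2.3.3, numpy 2.4.6, matplotlib 3.10.9 and scipy 1.17.1 under Python 3.11.15.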

Additional observations from a re-analysis of the deposited data

How the results depend on the processing

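No paired analysis was possible because only 1 sample, the ChIP library, had a peak list, and for the same reason no replicate could be left out. Across 77 alternative values, 59 were counted as unchanged. For ratios with an interval, this means the same direction and no change in whether the interval included 1. For medians and the covered share, it means a value within the interval of the main setting. For the covered share that interval treats bases as independent and is far too narrow, so even small shifts fell outside it. The density ratio of V to I to IV (0.645) ranged from 0.569 to 0.803, and that of arms to centre on V (0.610) from 0.574 to 0.716, all with intervals below 1. The ratio for stretches of at least 100 kb (1.93) ranged from 1.65 without III to 2.31 without IV, and with other limits of length it was 1.38 at 50 kb and 8.85 at 200 kb, all with intervals above 1. The odds ratio of an arm position for top-class against other peaks of V (1.02) was 1.59 with arms as outer 2 of 3 parts and 1.09 without chromosome ends, and each interval included 1. The odds ratio of arm positions (0.806) reached intervals that include 1 with scores of 250 or more (0.834), arms as outer 2 of 3 parts (0.897) and chromosome ends left out (0.899). The ratio of left to right arm (1.11) became 1.61 in the higher-scoring 50%. In the other settings it ran from 1.06 to 1.31, with intervals that include 1. The ratio of top-class shares (1.07) became 0.974 with peaks under 5000 bp apart merged, 0.887 for scores of 1000 or more and 0.991 without III. Its intervals were those of the matching odds ratios, none of which excluded 1. The ratio of covered shares (0.579) was 0.534 with scores of 250 or more, 0.528 in the higher-scoring 50%, 0.555 with merging under 5000 bp, and 0.606, 0.559, 0.613 and 0.540 without I, II, III and IV. The difference in median width (-120.5 bp) was -220 bp with scores of 250 or more and -402 bp with merging under 5000 bp. The difference in median score (-78.8) was -163 with that merging and 20.1 among the higher-scoring 50% of peaks, which the score itself selects. The causes were not tested. Without read counts, depth could not be varied.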
